A study of Mus musculus with 8 samples.

Results

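METTL3 is the enzyme that places N6-methyladenosine (m6A), the most abundant internal mark of mRNA. Libraries labelled Mettl3 cKO, a conditional knockout, were compared with the wild-type (WT) libraries of the same line in mouse embryonic stem cells. Culture was in primitive endoderm induction medium. The comparison rests on 4 libraries, 2 labelled Mettl3 WT and 2 labelled Mettl3 cKO, of 8 in the series. The other 4 belong to a second line, with 2 libraries of Virma WT and 2 of Virma cKO. Its WT libraries serve here as a second control. The labels do not give the deleted part of Mettl3, the agent or time of induction, or the number of clones, and do not say that the 2 libraries of a group came from separate cultures. P-values therefore rest on differences between libraries that may be technical alone. Every gene with a value of at least 30 in at least 2 of the 8 libraries entered, which left 12755 of 21812 genes. Of these, 441 reached that minimum only with the Virma line counted, and 48 of the 441 were called higher and 12 lower. Of the genes left out, 4558 were at 0 in all 4 libraries.

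The deposited values are read numbers multiplied by 1 factor per library, which brings the upper quartile of every library to about 601.5. Depth read back from which whole numbers the values skip or share was 6702032 and 6199665 reads in WT, 17618908 and 15995775 in cKO, and 22283957 to 25605002 in the Virma line. A value of 100 thus stands for 39.2 reads in WT replicate 1 and 106 in cKO replicate 1, and low genes are less precise in WT. Every fold change below is the difference of log2(value + 5), given with its standard error (SE), and understates the change of low genes. Adjusted p-values are from limma over all genes tested. In bulk RNA, fewer cells of a type and less RNA per cell cannot be told apart.

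The m6A writer is a METTL3 and METTL14 core joined by WTAP, VIRMA, ZC3H13, CBLL1 and the RBM15 proteins. The mark is read by YTH-domain proteins in the nucleus and the cytoplasm, and can mark an mRNA for decay or protect it. Primitive endoderm is the extraembryonic layer of the blastocyst that forms beside the pluripotent epiblast. It is specified by FGF signalling and the GATA factors, secretes a laminin and collagen IV basement membrane, and absorbs nutrients through endocytic receptors.

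In cKO, 7308 of 12755 genes (57.3%) passed an adjusted p of 0.05. Of these, 3407 were higher (26.7% of those tested) and 3901 were lower (30.6%). Most shifts were small: 63.4% of the higher and 76.8% of the lower genes moved by less than 1.5-fold. At least 2-fold rises numbered 392 (3.07%) and at least 2-fold falls 134 (1.05%). At least 4-fold changes were 20 rises and 0 falls. The median log2 fold change over all tested genes was -0.0108, with quartiles of -0.278 and 0.282.

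**Figure D1:**
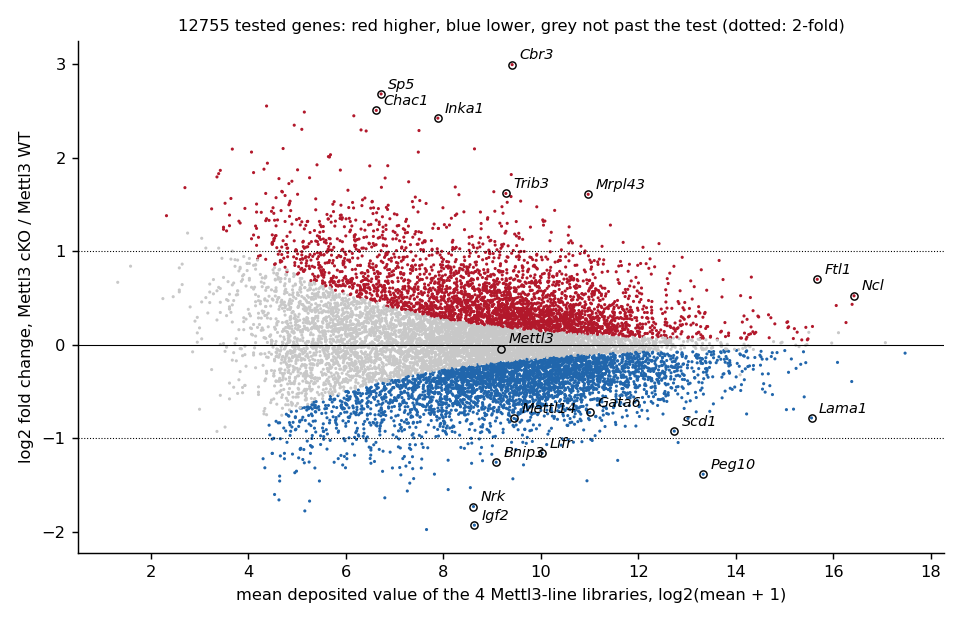
Log2 fold change of the 12755 tested genes (vertical axis) against the mean deposited value of the 4 libraries on a log2 scale (horizontal axis). Red genes were higher and blue genes lower in Mettl3 cKO at an adjusted p of 0.05, and the dotted lines mark 2-fold. Cbr3 lies at 2.99 and Igf2 at -1.93, while Mettl3 itself lies at -0.04.

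With Virma WT as control for the same cKO libraries, 4386 genes were higher (34.4%) and 4700 lower (36.8%). The WT libraries of the 2 lines differed from each other in 6373 genes (50%). Of the 7308 genes called against Mettl3 WT, 70.3% were called in the same direction against Virma WT, and 17.5% had the opposite sign. Both comparisons share the cKO libraries. The second value is given beside many of the first ones, because a gene that differs from the WT of its own line alone can also differ between the WT libraries. On chromosomes 6 and 8 the comparison with the second control was shifted, with a median log2 difference of 0.255 and 0.284 between cKO and Virma WT. Named genes on chromosome 6 are Nanog, Asns, Nop2, Gapdh, Cdkn1b and Peg10, and those on chromosome 8 are Col4a1, Plat, Fgfr1, Dkk4, Aars, Nqo1, Ankrd37 and Cnot1.

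The Mettl3 transcript itself did not fall in total. Mettl3 had values of 596 and 588 in WT and 588 and 560 in cKO, with 1 cKO library level with a WT library (log2 fold change -0.04 ± 0.08, adjusted p = 0.671). These are totals over the whole gene and the deleted part is not given, so they do not check the labels. Against Virma WT, with 768 and 742, Mettl3 was lower (-0.39 ± 0.06).

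Its partners moved in both directions. Mettl14, which encodes the RNA-binding partner of METTL3, had 874 and 897 in WT and 508 and 514 in cKO. It fell by 0.79 ± 0.07 on the log2 scale (adjusted p = 3.63e-18), to 57.7% of WT, and lay as far below Virma WT (-0.72 ± 0.06). Wtap, the adaptor that brings the core to nuclear speckles, had 1828 and 1782 in WT and 2723 and 2705 in cKO. Wtap rose by 0.59 ± 0.05 (adjusted p = 1.45e-22). Rbm15, which binds U-rich RNA, had 561 and 599 in WT and 907 and 956 in cKO, a rise of 0.68 ± 0.08. Both rises held against Virma WT (0.52 and 0.37). The other 5 of the 8 writer genes did not pass the test: Virma stood at 0.08, Zc3h13 at -0.04, and Cbll1 and Rbm15b both at -0.08. Against Virma WT, Virma (0.21), Zc3h13 (-0.15) and Rbm15b (-0.44) passed it, and Cbll1 (-0.02) did not. Of the 8 genes, 3 were higher and 4 lower there.

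Of 15 reader and demethylase genes, 3 rose and 9 fell, with a median of -0.126. Ythdf2, the reader best known for mRNA decay, had 1415 and 1526 in WT and 2775 and 2638 in cKO (0.88 ± 0.05, adjusted p = 2.23e-33). Ythdc1, the nuclear reader, had 3752 and 3582 in WT and 6110 and 6266 in cKO (0.75 ± 0.04). Neither pair of groups overlapped, and both genes were also higher than in Virma WT (0.32 and 0.38). Fmr1, an RNA-binding protein of translational control, fell from 1878 and 1766 to 1026 and 1053 (-0.81 ± 0.06), and Ythdc2, a helicase reader, from 293 and 268 to 158 and 179 (-0.72 ± 0.13).

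The primitive endoderm genes were on the lower side in cKO. Their defining markers were well detected in all libraries, as were those of pluripotent cells. Of 8 primitive endoderm transcription factors, 0 rose and 6 fell, with a median of -0.319. Gata6, which starts the primitive endoderm programme, had 2656 and 2456 in WT and 1595 and 1496 in cKO. It fell by 0.72 ± 0.05 (adjusted p = 2.07e-29), to 60.5% of WT, and stood 0.23 lower than in Virma WT (log2 fold change -0.23 ± 0.04). Gata4, its partner, had 4035 and 3921 in WT and 3255 and 3221 in cKO (-0.30 ± 0.04), and -0.15 against Virma WT. Sox7, an endoderm SOX factor, had 1715 and 1755 in WT and 1233 and 1139 in cKO (-0.55 ± 0.05). The groups of all 3 genes stood apart.

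Foxq1, a further endoderm factor, fell by 0.40 ± 0.05 and was lower than in Virma WT by as much (-0.40). Foxa2 had 362 and 400 in WT and 294 and 323 in cKO (-0.30 ± 0.11, adjusted p = 0.0108). That call rests on few libraries: it was lost without WT replicate 2 and without cKO replicate 1, with an adjusted p of up to 0.162, and Foxa2 was at 0.03 against Virma WT. Sox17, the other SOX factor of the list, had overlapping groups of 706 and 795 against 696 and 753 (-0.05 ± 0.08, adjusted p = 0.606). Hnf4a, the visceral endoderm regulator, was near the low end in every library, with 56 and 77 against 62 and 56 (adjusted p = 0.607).

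Among surface genes of the lineage, Pdgfra, the PDGF receptor used to sort primitive endoderm, had 3821 and 3758 in WT and 2115 and 2145 in cKO (-0.83 ± 0.04, adjusted p = 1.35e-40). Virma WT had 3901 and 3755, level with Mettl3 WT, and the difference from it was -0.84. Dab2, an endocytic adaptor, fell from 3482 and 3609 to 2470 and 2362 (-0.55 ± 0.04). Cubn, the cubilin receptor of the absorbing surface, fell from 14212 and 13907 to 8706 and 8458 (-0.71 ± 0.03). Both were still further below Virma WT (-1.07 and -1.13). Aqp8, a water channel, had 2952 and 2837 in WT and 1038 and 1069 in cKO, 36.4% of WT (-1.45 ± 0.05), with a smaller difference from Virma WT (-0.61). Of the 10 endocytic and apical genes, 1 rose and 5 fell, with a median of -0.285.

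Basement membrane genes gave one of the most one-sided lists: of 17, 0 rose and 15 fell, with a median of -0.506. The 3 chains of laminin-111, the first laminin of the embryo, fell together. Lama1 went from 60606 and 61032 to 35428 and 35313 (-0.78 ± 0.02, adjusted p = 3.63e-70). Lamb1 stood at -0.69 ± 0.02 and Lamc1 at -0.69 ± 0.02. All 3 were also lower than in Virma WT, by less (-0.37, -0.25 and -0.49). Col4a1, a collagen IV chain, fell by 0.56 ± 0.02 against Mettl3 WT, from 51338 and 51905 to 34878 and 35286. It did not differ from Virma WT beyond the spread, with 34756 and 36149 there (-0.01 ± 0.03, adjusted p = 0.628). Col4a1 lies on chromosome 8, where the median gene stood at 0.284 in that comparison. Plod2, a collagen-modifying enzyme, stood at -0.70 against its own WT and -0.75 against Virma WT. Over the list, 11 of 17 fell and 3 rose against Virma WT, with a median of -0.186.

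Markers of the derived layers went both ways against Mettl3 WT and were more often lower against Virma WT. Of 11 visceral endoderm markers tested, 2 rose and 2 fell, and 3 rose and 6 fell against Virma WT (median -0.24). Apoe, a lipid carrier, stood at -0.13 ± 0.03. Of 9 parietal endoderm markers, 3 rose and 4 fell, and 2 rose and 6 fell against Virma WT (median -0.198). Plat, the tissue plasminogen activator, went from 619 and 524 to 280 and 282 (-1.01 ± 0.10), with -0.63 against Virma WT. Thbd, thrombomodulin, rose from 41 and 14 to 70 and 70 (1.34 ± 0.31), but rests on 16 and 5 reads in WT, lost its call without WT replicate 2, and was lower than in Virma WT (-0.61).

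**Figure D2:**
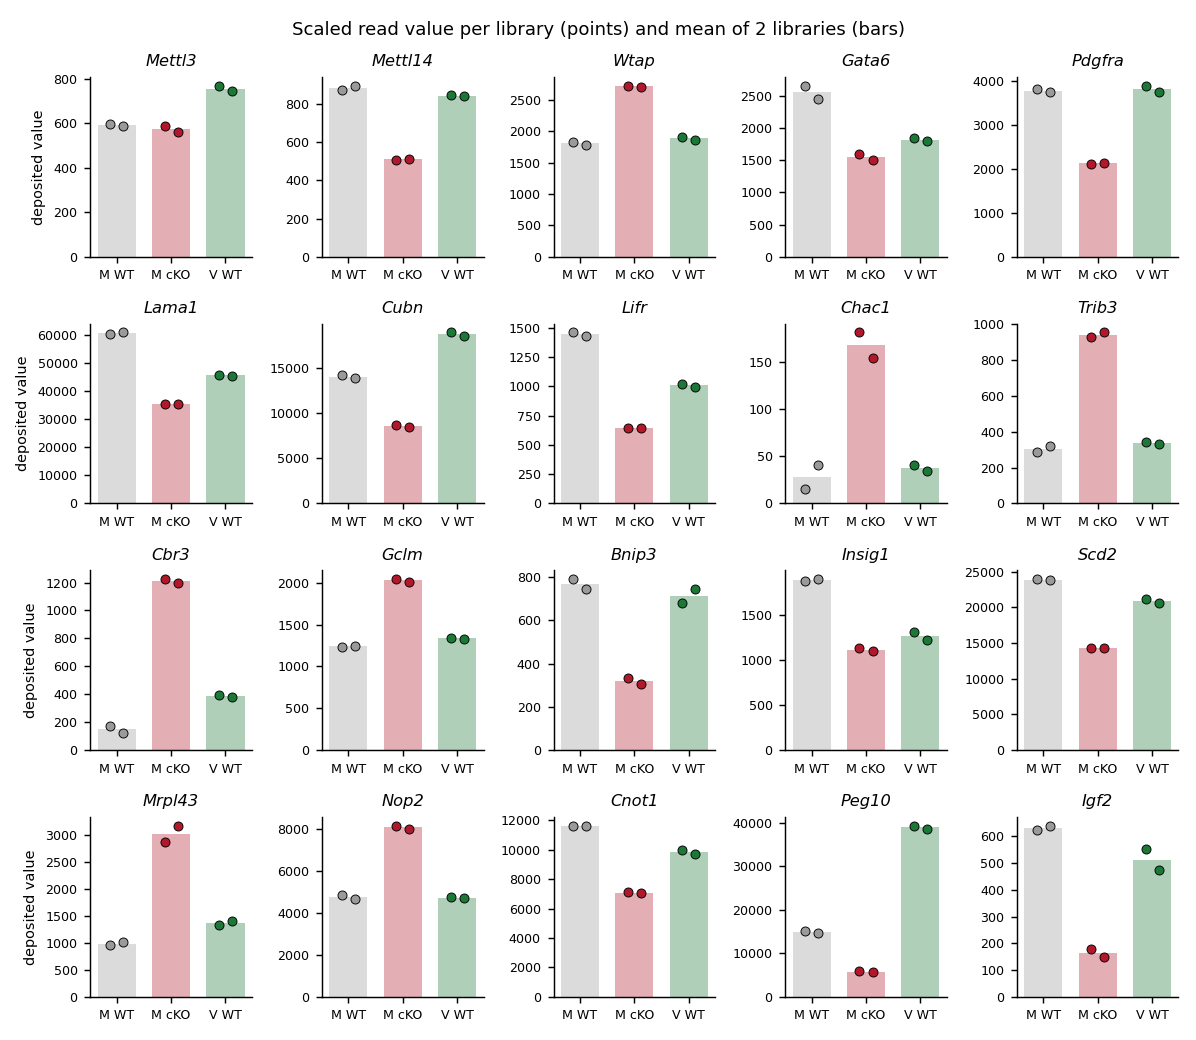
Deposited value (vertical axes, each from 0) of 20 genes in each library (points) with the mean of 2 libraries (bars), for Mettl3 WT (grey, M WT), Mettl3 cKO (red, M cKO) and Virma WT (green, V WT). Mettl14, Gata6, Pdgfra, Lama1 and Bnip3 were lower in cKO than in both WT pairs, Chac1, Trib3, Cbr3 and Mrpl43 were higher than in both, and Mettl3 was level with its own WT.

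The 3 core pluripotency factors changed by less than 1.5-fold and not in one direction. Pou5f1, which encodes OCT4, had 8212 and 8394 in WT and 10130 and 10364 in cKO (0.30 ± 0.03), with 0.11 against Virma WT. Nanog had 2223 and 2307 in WT and 1962 and 1874 in cKO (-0.24 ± 0.05), and Sox2 stood at -0.27 ± 0.07. Of 20 core and naive factors, 6 rose and 9 fell, with a median of -0.136. Against Virma WT 4 rose and 14 fell, with a median of -0.296. Larger falls came from Klf5, a naive-state factor, with 3969 and 3700 against 2138 and 2101 (-0.85 ± 0.04), from Tcl1 (-0.92 ± 0.16), a cofactor of AKT, and from Nr5a2 (-0.80 ± 0.15), a nuclear receptor. Each of these was also lower than in Virma WT (-0.51, -0.29 and -0.53).

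Of 13 formative and primed epiblast genes, 8 rose and 2 fell against Mettl3 WT, with a median of 0.483. Against Virma WT 3 rose and 9 fell, with a median of -0.547, so the direction of the list depends on the WT pair. Utf1, a chromatin factor of pluripotent cells, was higher than both, with 1137 and 1062 in WT, 2134 and 2128 in cKO and 1667 and 1814 in Virma WT (0.95 ± 0.06 and 0.29). Sox3 was 0.91 ± 0.16 above Mettl3 WT and -0.09 from Virma WT, and Lef1 was 1.16 ± 0.38 above the one and -1.90 from the other. Lef1 rests on 9 and 3 reads in Mettl3 WT and lost its call without WT replicate 2.

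DNA methylation enzymes were lower against both pairs: of 8, 0 rose and 7 fell (median -0.297), and 7 fell against Virma WT (median -0.303). Tet2, which oxidises methylcytosine, fell from 1937 and 1901 to 1078 and 1033 (-0.86 ± 0.05, adjusted p = 6.1e-31). Dnmt3l, the cofactor of the de novo enzymes, stood at -0.47 ± 0.04. Dnmt3b, a de novo enzyme, stood at -0.34 ± 0.04 and at -1.08 against Virma WT.

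Receptors and feedback genes of the signalling pathways changed one by one. Lifr, the receptor for LIF, the cytokine that maintains naive cells, had 1460 and 1427 in WT and 647 and 640 in cKO. It fell to 44.6% of WT (-1.16 ± 0.06, adjusted p = 3.65e-37) and was lower than in Virma WT (-0.64). Its co-receptor Il6st fell by 0.58 ± 0.05, while Pim1, a kinase gene induced by STAT3, rose by 0.67 ± 0.06. Against Virma WT they stood at -0.36 and 0.21. Of the 10 LIF and STAT3 genes, 4 rose and 3 fell.

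FGF genes also went both ways. Fgfr2 fell from 1320 and 1319 to 934 and 849 (-0.56 ± 0.06). Fgfr1 had 3482 and 3722 in WT and 3954 and 3907 in cKO (0.13 ± 0.04, adjusted p = 0.00264), a call lost without WT replicate 1 (adjusted p = 0.167). Fgf4, the epiblast ligand, had 347 and 361 against 388 and 383 (0.12 ± 0.10, adjusted p = 0.32). Fgf10 stood at -0.79 ± 0.09, and Fgf17 at 1.57 ± 0.26 and at 0.45 against Virma WT. Of 16 FGF and PDGF genes tested, 4 rose and 5 fell (median 0.0561), and against Virma WT 4 rose and 9 fell (median -0.274). The ERK-induced genes Etv4, an ETS factor, and Dusp6, an ERK phosphatase, rose by 0.78 ± 0.04 and 0.44 ± 0.07, whereas Spry2, an inhibitor of the pathway, fell by 0.48 ± 0.07. The differences of these 3 from Virma WT were 0.87, 0.25 and -0.68. Of 15 ERK genes, 5 rose and 3 fell (median 0.192), and against Virma WT 6 rose and 8 fell (median -0.288), so the sign of the median depends on the WT pair.

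Of 12 Wnt feedback and target genes, 6 rose and 1 fell, with a median of 0.262. Against Virma WT 5 rose and 4 fell, with a median of 0.171. Sp5, a direct Wnt target, had 20 and 30 in WT, which stand for 8 and 11 reads, and 188 and 181 in cKO (2.68 ± 0.29, adjusted p = 1.21e-14). Virma WT had 123 and 134, and the difference from it was 0.51. Cdx1 rose from 2689 and 2748 to 4112 and 4079 (0.59 ± 0.04), with 0.27 against Virma WT. Dkk4, a secreted Wnt inhibitor, had 2 and 0 reads in WT and 46 and 29 in cKO, and was level with Virma WT (-0.03 ± 0.20). In the Nodal and BMP list, 9 of 14 rose and 4 fell (median 0.312), but 6 rose and 7 fell against Virma WT (median -0.0276). Bmp4 rose from 99 and 177 to 302 and 283 (1.11 ± 0.16) and Bambi, a decoy receptor, from 479 and 475 to 748 and 791 (0.68 ± 0.09). Both stood about as far above Virma WT (1.07 and 0.69). Tdgf1, the Nodal co-receptor, fell by 0.57 ± 0.05 and stood at -1.09 against Virma WT.

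Of 13 Hippo and YAP genes, 2 rose and 7 fell, and against Virma WT 1 rose and 11 fell. Amot, a scaffold that binds YAP, went from 3517 and 3192 to 2008 and 1996 (-0.74 ± 0.04), and Tead1, the DNA-binding partner of YAP, stood at -0.53 ± 0.05. Both were further below Virma WT (-1.11 and -0.95). Ajuba, a LIM protein that restrains the pathway's kinases, rose from 941 and 1004 to 2011 and 2136 (1.09 ± 0.06), with 0.25 against Virma WT. Of 15 retinoic acid genes, 8 rose and 5 fell. Cyp26a1, which degrades retinoic acid, fell from 4991 and 5058 to 3050 and 3031 (-0.72 ± 0.04) but was above the 1709 and 1723 of Virma WT (0.82).

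Genes of the integrated stress response rose against both WT pairs. This pathway slows translation and raises the factor ATF4, which induces genes of amino acid supply, redox balance and cell death. Of 22 genes, 17 rose and 1 fell, with a median of 0.456. Against Virma WT 20 rose and 1 fell, with a median of 0.513. ATF4 binds sites that join parts of a C/EBP and an ATF site, written here as TGATGNAA. The promoter windows of the 3 genes with the largest change among the called members that hold these letters are shown to put the sites beside the values. They run from 250 bases before to 50 bases after the RefSeq start on GRCm38.p6, 5′ to 3′ on the strand of the gene, with the match in capitals, each time on the other strand.
Chac1: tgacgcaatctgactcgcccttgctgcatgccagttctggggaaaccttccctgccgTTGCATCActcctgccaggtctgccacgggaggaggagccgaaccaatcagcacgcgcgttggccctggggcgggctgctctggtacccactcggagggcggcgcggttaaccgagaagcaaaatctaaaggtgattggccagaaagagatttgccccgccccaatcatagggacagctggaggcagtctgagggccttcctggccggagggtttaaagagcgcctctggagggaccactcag
Trib3: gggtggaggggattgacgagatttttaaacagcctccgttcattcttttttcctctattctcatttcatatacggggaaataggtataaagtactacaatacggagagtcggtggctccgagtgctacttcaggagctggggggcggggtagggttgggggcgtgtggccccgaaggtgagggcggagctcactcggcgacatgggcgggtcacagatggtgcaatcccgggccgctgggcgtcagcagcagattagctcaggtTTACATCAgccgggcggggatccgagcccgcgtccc
Pck2: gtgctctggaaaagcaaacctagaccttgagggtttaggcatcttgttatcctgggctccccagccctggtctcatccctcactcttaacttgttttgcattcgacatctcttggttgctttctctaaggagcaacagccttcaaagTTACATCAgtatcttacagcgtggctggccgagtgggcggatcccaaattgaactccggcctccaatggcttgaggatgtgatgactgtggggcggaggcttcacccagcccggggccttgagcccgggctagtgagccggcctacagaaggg
The window of Chac1 is chr2:119350992-119351291 on the plus strand, that of Trib3 chr2:152344011-152344310 on the minus strand and that of Pck2 chr14:55540016-55540315 on the plus strand. The match begins 193 bases before the start in Chac1 and 103 before it in Pck2, and 14 bases after it in Trib3. Searched on both strands, the letters occur in 7 of the 20 members with a window (35%), in 2.7% of the 10140 tested genes with one, and in 3.97% of all 32851 windows. A match is a description of the letters, not a bound site.

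Chac1, which degrades glutathione, had 15 and 41 in WT, 181 and 154 in cKO, and 41 and 34 in Virma WT. The WT values stand for 6 and 15 reads. Its log2 fold change was 2.50 ± 0.30 (adjusted p = 6.05e-13) and 2.02 against Virma WT. Trib3, a feedback inhibitor of ATF4, had 288 and 320 in WT and 927 and 955 in cKO, 3.07-fold higher (1.62 ± 0.10, adjusted p = 6.81e-31). Pck2, the mitochondrial carboxykinase, had 484 and 450 against 1007 and 1074 (1.15 ± 0.09), and Cebpb, a C/EBP factor, 245 and 295 against 552 and 604 (1.09 ± 0.11). The groups of these 4 genes stood far apart, and all 4 were higher than in Virma WT, Cebpb by less (0.51). The 1 member that fell was Asns, asparagine synthetase, named after its values were seen, from 12145 and 12210 to 10704 and 10596 (-0.19 ± 0.03). Asns is among the 7 members whose window holds the letters TGATGNAA, so members with the letters went both ways.

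Genes that share some of that regulation did not follow as lists. Of 20 cytosolic aminoacyl-tRNA synthetases, 4 rose and 13 fell: Aars stood at 0.34 ± 0.03 and Dars at -0.58 ± 0.04. Of 16 endoplasmic reticulum chaperones, 3 rose and 8 fell, with a median of -0.0866.

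Targets of NRF2, the factor that answers oxidative stress, rose in 12 of 16 cases with 1 fall and a median of 0.346. Against Virma WT 12 rose and 0 fell, with a median of 0.561. The list shares Slc7a11 with the stress response list. Cbr3, a carbonyl reductase, had 176 and 124 in WT, 1225 and 1197 in cKO and 397 and 379 in Virma WT. It was 7.96-fold above its own WT (2.99 ± 0.14, adjusted p = 4.52e-43) and 1.63 above Virma WT on the log2 scale, and gave the largest rise among the named genes. Its neighbour in function Cbr1 rose from 505 and 533 to 989 and 970 (0.91 ± 0.08). Gclm, a subunit of the glutathione-synthesis enzyme, rose from 1236 and 1244 to 2045 and 2013 (0.71 ± 0.06), and Nqo1, a quinone reductase on chromosome 8, by 0.51 ± 0.05, with 1.39 against Virma WT. Ftl1, the ferritin light chain, is outside the list and went from 39430 and 40145 to 64399 and 64775 (0.70 ± 0.02), with 0.74 against Virma WT.

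Further genes had large rises against both WT pairs, among them Inka1, Ltb and Madcam1 (2.28 ± 0.30, with 1.74 against Virma WT). Inka1, an inhibitor of the kinase PAK4, had 76 and 66 in WT, 401 and 401 in cKO and 90 and 93 in Virma WT (2.42 ± 0.19). Ltb, lymphotoxin beta, had 20 and 17, 115 and 131, and 30 and 28 (2.45 ± 0.33). The Mettl3 WT values stand for only 8 and 6 reads of Ltb and 13 and 7 of Madcam1. In the p53 list, 4 of 17 rose and 6 fell, and 6 rose and 9 fell against Virma WT. Aen, an apoptosis nuclease, rose by 0.78 ± 0.06 with 0.28 against Virma WT, and Trp53 itself stood at -0.07 ± 0.04 (adjusted p = 0.164), and at -0.37 against Virma WT.

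Metabolic genes fell against Mettl3 WT, and many of these falls were smaller or missing against Virma WT. Of 12 hypoxia targets, 0 rose and 8 fell, with a median of -0.474. Ndrg1, a stress-induced gene of differentiation, went from 398 and 422 to 132 and 142 (-1.55 ± 0.12, adjusted p = 5.39e-23). Bnip3, which acts in mitophagy, went from 790 and 742 to 331 and 305 (-1.26 ± 0.09). Virma WT was close to Mettl3 WT for both, and the differences from it were -1.62 and -1.15. Ankrd37 and Egln3 fell by 1.26 ± 0.15 and 0.75 ± 0.09 against Mettl3 WT but stood at 0.02 and -0.06 against Virma WT. Ankrd37 lies on chromosome 8, where the comparison with Virma WT was shifted. Over the list, 3 rose and 4 fell against Virma WT (median -0.121).

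Of 20 glycolysis genes, 2 rose and 14 fell, with a median of -0.307. Pgk1, a kinase of the lower pathway, went from 7392 and 7467 to 5103 and 5124 (-0.54 ± 0.03) and stood at -0.52 against Virma WT. Pfkp and Aldoc fell by 0.61 ± 0.04 and 0.74 ± 0.14, but were higher than in Virma WT (0.48 and 0.34). Against Virma WT, 6 of the list rose and 12 fell.

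Of 23 genes of cholesterol synthesis and uptake, 0 rose and 17 fell, with a median of -0.306. Insig1, a feedback regulator of the SREBP factors, went from 1878 and 1901 to 1131 and 1101 (-0.76 ± 0.05), and Stard4, a sterol carrier, from 1086 and 1140 to 651 and 617 (-0.81 ± 0.07). Both were lower than in Virma WT (-0.18 and -0.70). Fdps fell by 1.09 ± 0.19 from low values of 120 and 124 and stood at 0.27 ± 0.18 from Virma WT. The list had 7 rises and 11 falls against Virma WT, with a median of -0.0772. The SREBP letters TCACNCCAC occur in the window of 1 of the 15 members with one (6.67%) and in 1.49% of tested genes with one.

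Of 12 fatty acid synthesis genes, 0 rose and 9 fell, with a median of -0.366, against 3 and 6 with Virma WT (median -0.0535). Scd1, which desaturates fatty acids, had 8959 and 8937 in WT and 4777 and 4658 in cKO, 52.7% of WT (-0.92 ± 0.03), and stood at -0.08 against Virma WT. Scd2, its sister enzyme, had 23982 and 23837 in WT and 14291 and 14342 in cKO (-0.74 ± 0.02), and stayed lower than Virma WT (-0.54). Acly, which supplies acetyl-CoA, stood at -0.56 and -0.15.

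Mitochondrial ribosomal proteins, which build the ribosome inside mitochondria, rose against both WT pairs. Of 77 genes tested, 50 rose and 5 fell (median 0.307). Against Virma WT 60 rose and 6 fell (median 0.313), and after removal of the trend with transcript length and GC content 52 rose and 7 fell. Mrpl43 had 961 and 1018 in WT and 2874 and 3180 in cKO (1.61 ± 0.06, adjusted p = 2.7e-52). Mrpl46 had 691 and 651 against 1809 and 1835 (1.43 ± 0.07), and Mrps34 602 and 635 against 1440 and 1575 (1.28 ± 0.08). Mrpl16 stood at 1.13 ± 0.09. These 4 members were more than 2-fold higher, the cKO libraries of each lay above all WT libraries of both lines, and the differences from Virma WT were 1.13, 0.95, 0.92 and 0.60.

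Factors that assemble the cytosolic ribosome rose in 13 of 28 cases and fell in 5. Nop2, a nucleolar RNA methyltransferase, had 4825 and 4674 in WT and 8142 and 7998 in cKO (0.76 ± 0.03, adjusted p = 5.68e-46). Nhp2, of the H/ACA particles, had 2862 and 2936 against 5139 and 5309 (0.85 ± 0.04), and Polr1b, the second largest subunit of RNA polymerase I, stood at 0.68 ± 0.05. Ncl, nucleolin, had 72295 and 72229 against 103067 and 104538 (0.52 ± 0.02). All 4 were higher than in Virma WT (0.77, 0.51, 0.53 and 0.19), but the list as a whole had 11 rises and 12 falls there. Myc, a regulator of these genes, rose from 548 and 477 to 802 and 775 (0.62 ± 0.09), with 0.22 against Virma WT.

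Cytosolic ribosomal proteins went both ways, and their split depended on the setting. Of 84, 32 rose and 38 fell (median -0.0473). With the length and GC trend removed the split was 13 and 48, and against Virma WT 53 and 10. Nuclear-encoded respiratory chain subunits behaved alike, with 23 rises and 25 falls of 80, then 13 and 37, and 48 and 11. Many of these genes have near-identical copies, and the sources used here do not give how reads with several positions were counted. Rpl10l, a copy gene of RPL10, rose from 296 and 292 to 1010 and 1090 (1.82 ± 0.10). Rplp0, a stalk protein, rose by 0.42 ± 0.02. Their differences from Virma WT were 1.49 and 0.17.

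Of the 13 mitochondrially encoded genes, 8 rose and 2 fell against Mettl3 WT, and 3 rose and 3 fell against Virma WT. Of the 8, 2 entered only through the Virma libraries, mt-Nd3 and mt-Nd4l (the latter named after its values were seen), and 6 rises were left without them. mt-Co1 went from 98318 and 95131 to 74954 and 72355 (-0.39 ± 0.02). mt-Co2 had 36 and 14 against 136 and 128, and mt-Atp6 61 and 55 against 294 and 311 (2.29 ± 0.31 and 2.29 ± 0.21). The WT values stand for only 14 and 5 reads of mt-Co2 and 24 and 20 of mt-Atp6. For mt-Co2 Virma WT had 134 and 118, level with cKO, and mt-Atp6 stood at 0.35 against Virma WT. mt-Nd3 had 5 and 0 in WT, 17 and 12 in cKO and 366 and 341 in Virma WT. All 4 values of the Mettl3 line are thus below the minimum of 30, and the call was lost without WT replicate 2 and without cKO replicate 1 (adjusted p of up to 0.287).

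Cell cycle genes were mostly lower. Of 23 replication and mitosis genes, 2 rose and 17 fell (median -0.292), and against Virma WT 2 rose and 16 fell (median -0.239). Ccna2, cyclin A, went from 3933 and 3835 to 2753 and 2717 (-0.51 ± 0.04). Mcm4, of the replicative helicase, stood at -0.48 ± 0.04, and Bub1, a checkpoint kinase, at -0.54 ± 0.05 (-0.30 against Virma WT). Among 16 G1 regulators, 3 rose and 7 fell. Cdkn1b, which encodes the inhibitor p27, fell from 594 and 604 to 269 and 260 (-1.16 ± 0.10), with -0.14 ± 0.08 against Virma WT. Ccnd1, cyclin D1, rose from 308 and 323 to 667 and 712 (1.12 ± 0.10) but was below the 851 and 868 of Virma WT (-0.32). Rb1 stood at -0.88 ± 0.16 and -0.54.

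More genes of RNA processing and turnover fell than rose against both WT pairs. Of all genes tested, 30.6% were lower and 26.7% higher against Mettl3 WT, and 36.8% and 34.4% against Virma WT. In the quintile of genes with the highest mean value, 46.7% were lower and 31% higher against Mettl3 WT. The lists were not matched by level. With the length and GC trend removed, 3370 of all 12755 genes were lower and 3266 higher against Mettl3 WT. Of 33 mRNA decay genes, 7 rose and 18 fell (median -0.181), with 6 and 17 against Virma WT and 6 and 11 after the length and GC trend was removed. Cnot1, the scaffold of the CCR4-NOT deadenylase, went from 11595 and 11625 to 7093 and 7027 (-0.72 ± 0.03, adjusted p = 3.14e-50). Zfp36l1, which brings it to AU-rich mRNAs, stood at -0.68 ± 0.05 and at -0.22 against Virma WT. Exosc4, an exosome subunit, went the other way, from 301 and 298 to 651 and 690 (1.15 ± 0.10). Cnot1 and Exosc4 kept these directions against Virma WT (-0.47 and 0.70).

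Of 18 cleavage and polyadenylation factors, 3 rose and 10 fell, and Pcf11, a termination factor, went from 1817 and 1835 to 1169 and 1204 (-0.62 ± 0.05). Of 19 SR splicing factors and their kinases, 3 rose and 12 fell, among them Srsf11 at -0.55 ± 0.04 (-0.31 against Virma WT). With the trend removed, 5 rose and 7 fell. Of 23 Polycomb subunits, 2 rose and 10 fell. Of 323 numbered Zfp genes, mostly zinc finger repressors, 61 rose and 107 fell, but 77 rose and 63 fell with the trend removed. Their share of falls against Mettl3 WT was close to that of all genes. Against Virma WT it was not: 64 of the 323 rose and 168 fell (median -0.279), where 34.4% of all genes rose and 36.8% fell.

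Imprinted genes, which are expressed from 1 parental copy, held several of the larger losses. Of 17, 3 rose and 10 fell (median -0.371), and against Virma WT 6 rose and 10 fell (median -0.594). Peg10, a retrotransposon-derived gene of the placenta, had 15058 and 14751 in WT and 5812 and 5611 in cKO (-1.38 ± 0.03, adjusted p = 3.06e-84). Virma WT had 39266 and 38533, so the 2 WT pairs also lay far apart. Igf2, a growth factor, had 624 and 640 in WT, 177 and 149 in cKO and 552 and 473 in Virma WT. It fell to 25.8% of WT (-1.93 ± 0.11, adjusted p = 9.88e-34). Zim1 stood at -1.11 ± 0.30 against Mettl3 WT and -1.11 ± 0.23 against Virma WT. Its values were low, 46 and 47 in WT, which stand for 18 and 17 reads, and 21 and 17 in cKO. Ndn rose by 0.95 ± 0.15 with 0.06 against Virma WT. Outside the list, Nrk, an X-linked kinase gene of the placenta, fell from 576 and 635 to 175 and 183 (-1.73 ± 0.11), and Sema6d, a guidance ligand, from 270 and 375 to 62 and 96 (-1.97 ± 0.15). Their differences from Virma WT were -2.32 and -0.85.

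Markers of other cells moved too. Of 15 fibroblast markers tested, 13 rose and 0 fell, with a median of 0.953, and S100a4 was at 0 in the 4 libraries. Their summed value was 3856 and 4107 in WT, 7095 and 7008 in cKO, and 9306 and 9247 in Virma WT, so the Mettl3 WT pair was the low one. Col3a1 had 492 and 444 in WT and 1027 and 1041 in cKO (1.14 ± 0.09), and stood at -0.62 against Virma WT. Col6a1 stood at 1.35 and -0.45, Dcn at 1.12 and -0.95, and Thy1 at 1.16 and 0.15. Of 5 blood and endothelial markers tested, 4 rose and 0 fell. Kdr, the VEGF receptor, rose from 112 and 116 to 216 and 218 (0.90 ± 0.17), with 0.83 against Virma WT. Tal1, a blood factor, had 184 and 149 against 292 and 221 (0.60 ± 0.15), and lost its call without WT replicate 2 (adjusted p = 0.0527). Their part in the other results was not tested.

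**Figure D3:**
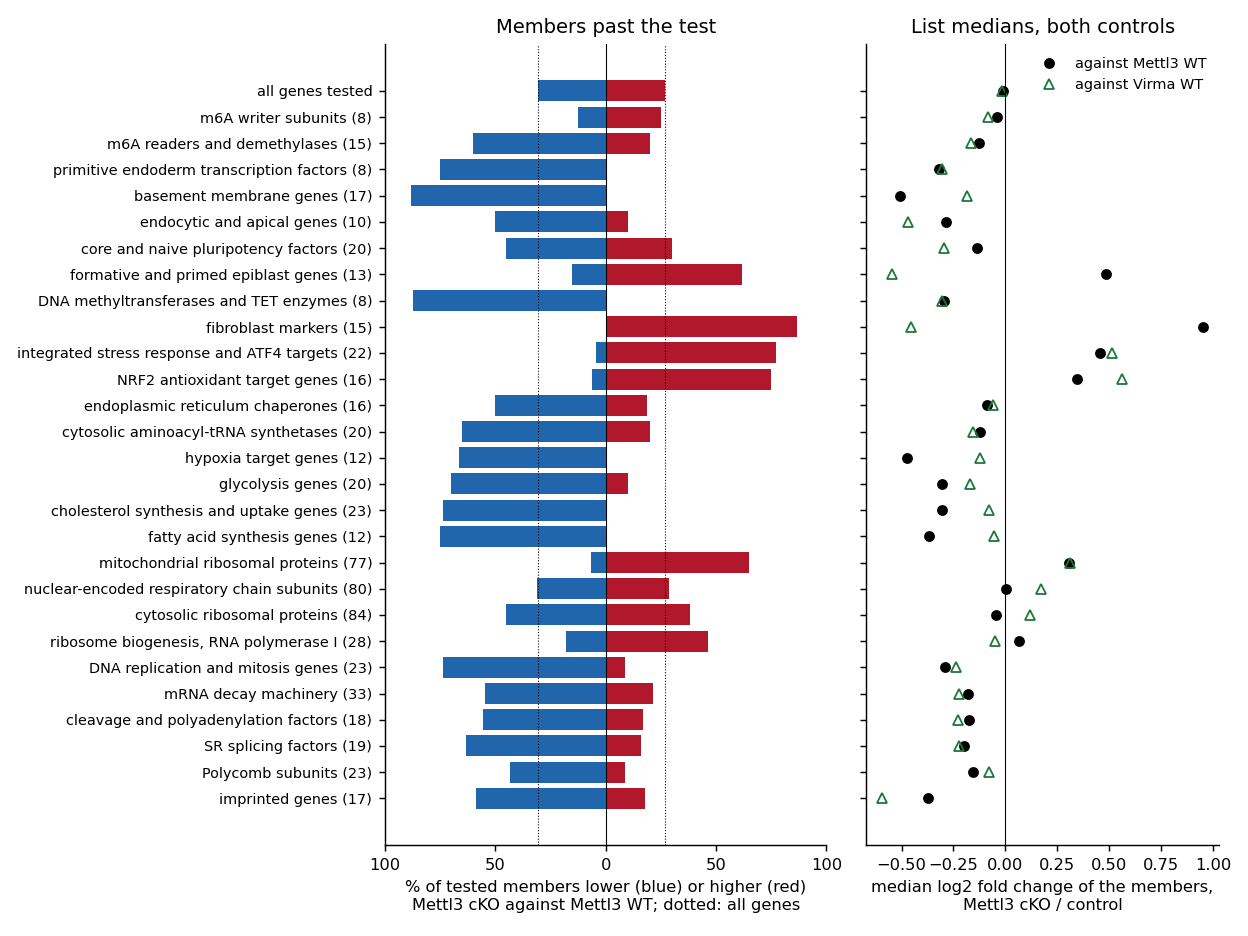
Left, share of tested members of 27 gene lists (number tested in brackets) that were lower (blue) or higher (red) in Mettl3 cKO against Mettl3 WT, with dotted lines at the shares of all 12755 genes, 30.6% lower and 26.7% higher. Right, median log2 fold change of the same lists against Mettl3 WT (filled points) and Virma WT (open triangles): the stress response and mitochondrial ribosome lists were above 0 against both, and the fibroblast and formative lists changed sign.

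The shifts followed base composition and length. Transcript features from GENCODE M21 matched 98.26% of tested genes. In the quintile of coding genes with the lowest transcript GC content, the median log2 fold change was -0.255, with 10.2% higher and 52.4% lower. In the quintile with the highest GC content it was 0.196, with 43.8% higher and 12.5% lower. By length the medians ran from 0.115 in the shortest quintile to -0.182 in the longest. Calls were also more frequent in genes of high level. From the quintile of lowest mean value to that of highest, 12.9% and 46.7% were called lower, and 18.2% and 31% higher. The gene lists were not matched to all genes by level. Against Virma WT the same order was seen, with -0.32 and 0.259 for the outer GC quintiles, while Virma WT against Mettl3 WT gave 0.0787 and -0.018. WT and cKO libraries also differ in depth, and the labels name 2 library kits without saying which made which library, so depth, kit and genotype cannot be told apart.

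The letters GGACT, a frequent core of m6A sites, were linked to higher values at their densest. The median was -0.0603 in the quintile of coding genes with the fewest per kilobase of transcript, which holds the 971 with none, -0.0793 in the next and 0.111 in the quintile with the most. After the length and GC trend was removed these were -0.0184, -0.0166 and 0.0346. The length of the longest internal exon, another feature linked to m6A, was taken in the genes that have one. Medians lay between -0.0551 in the third quintile and 0.0209 in the quintile with the longest. With the length and GC trend removed, these 2 quintiles stood at -0.0464 and 0.0654, again the lowest and the highest. Against Virma WT they stood at -0.0508 and -0.0462, and the highest median, 0.0302, was in the quintile with the shortest. The order thus depends on the WT pair. The 268 coding genes with 1 exon had a median of 0.167 against Mettl3 WT and -0.0284 against Virma WT. Removing the length and GC trend kept 73.1% of the calls and turned the sign of 6.24% of them.

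By chromosome, medians lay between -0.182 on chromosome X (13.8% higher, 43.7% lower) and 0.0982 on chromosome 11 (37.2% higher). The 2 WT pairs differed most on chromosomes 6 and 8, where Virma WT against Mettl3 WT had medians of -0.342 and -0.288, with the other chromosomes between -0.024 and 0.101. For the genes of these 2 chromosomes, cKO against Mettl3 WT stood at -0.0565 and -0.015, and against Virma WT at 0.255 and 0.284. The 2 lines thus differed for genes there, and which line was shifted was not tested.

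**Figure D4:**
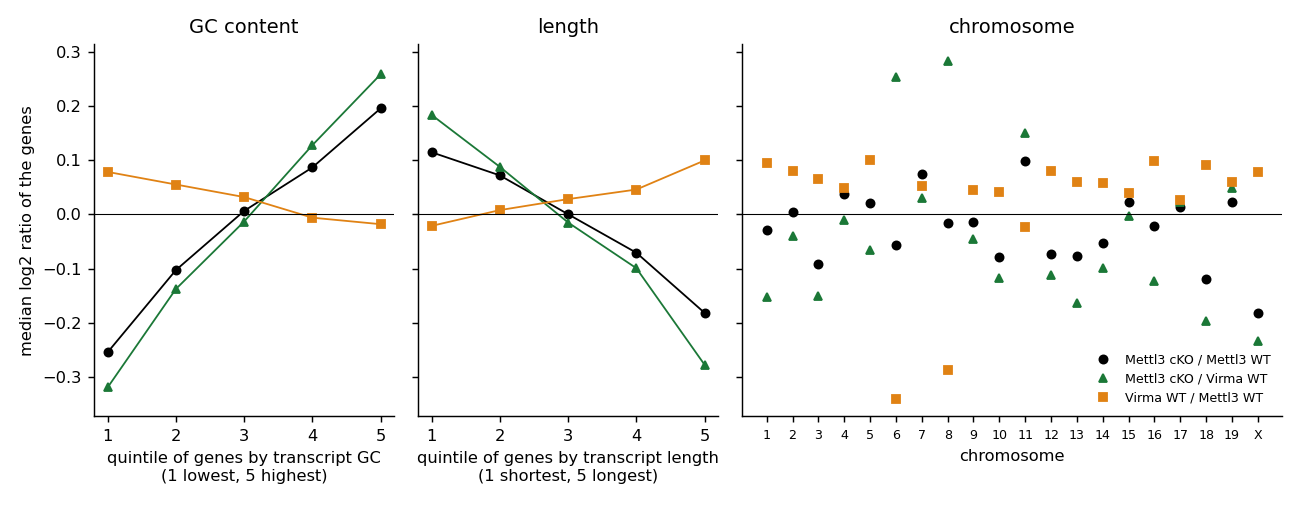
Median log2 ratio of the tested genes (vertical axis) by quintile of transcript GC content, by quintile of transcript length and by chromosome, for Mettl3 cKO against Mettl3 WT (black), Mettl3 cKO against Virma WT (green) and Virma WT against Mettl3 WT (orange). Both cKO ratios rise with GC content and fall with length, and the orange squares are low on chromosomes 6 and 8.

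Genes often used as references moved little: Actb had 36163 and 36433 in WT and 38029 and 37975 in cKO (0.07 ± 0.02), and Gapdh stood at 0.19 ± 0.02, with 0.43 against Virma WT. The sign of Actb changed with the control (-0.10 against Virma WT) and was -0.00 with the length and GC trend removed.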

How the data were processed

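Total RNA of 8 libraries was sequenced, with kits and TRIzol extraction per the labels' protocols. STAR 2.7.11b, Subread, Trim Galore, FastQC 0.12.1, DESeq2 and the build mm39 stand in the submitters' processing notes, without roles. The annotation and strand setting were not found in these sources. The deposited table is named as counts, but its values are a signal: the authors' values are reads scaled by 1 factor per library and rounded. In the Mettl3 WT libraries such a factor can reach 39.2% and 36.2% of whole numbers, and 99.99% and 100% of values were among them. In Mettl3 cKO replicate 1 and the Virma libraries every whole number can be reached, but those that 2 read numbers reach were used 1.94 to 2.09 times as often as those that 1 reaches. In Mettl3 cKO replicate 2, 96.3% can be reached and 99.92% of values were among them. A count test planned at the start was therefore replaced. Factors and reads were recovered from these patterns.

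The test was limma 3.58.1 in R 4.3.3 on log2(value + 5), with a spread curve per group (voomaByGroup), all 8 libraries in 4 groups, robust moderation, a minimum value of 30 in 2 of the 8 libraries and Benjamini-Hochberg adjustment at 0.05. Its script was tested on simulated data. On recovered reads the chi-square per degree of freedom of replicate pairs was 1.08 in Mettl3 WT, 1.63 in Mettl3 cKO, 1.91 in Virma WT and 1.33 in Virma cKO, so all were kept separate. Same-numbered libraries did not deviate together.

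The members and lists were chosen with earlier results of these data known. Named genes were the writers and primitive endoderm factors, the 12 largest rises and falls among called genes (non-overlapping groups, a mean of 2 or more in log2 CPM, no clone names), the 6 largest gains and losses in level, up to 4 called members of each list and 12 fixed genes; some genes under this rule are not reported here. Features and promoter windows came from GENCODE M21 and RefSeq on GRCm38, another build. Alternatives were scaling, filters, pseudocounts, thresholds, controls, trends, a replicate block and leaving out each library.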

Additional observations from a re-analysis of the deposited data

How the results depend on the processing

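Over the alternatives, other than leaving out a library, genes called higher numbered 2738 (adjusted p of 0.01) to 4386 (Virma WT as control), and genes called lower 3253 to 4700, all within 1.5 times the values reported. Leaving out each library in turn gave 2701 to 3134 higher and 3254 to 3602 lower, with 383 to 418 rises and 130 to 165 falls of at least 2-fold. The arm with 1 library is then assumed to vary like the other groups. Counts of 2-fold changes depended on the pseudocount: with 20 in place of 5 there were 210 rises and 69 falls, and with Virma WT as control 322 falls. Of 134 genes carried through, 18 changed to the opposite sign with Virma WT as control, with a call in at least 1 of the comparisons: Sox17 (0.22), Fgf4 (-0.26), Foxa2 (0.03), Thbd (-0.61), Lef1 (-1.90), Sox3 (-0.09), Dkk4 (-0.03), Cyp26a1 (0.82), Ankrd37 (0.02), Pfkp (0.48), Aldoc (0.34), Fdps (0.27), mt-Nd3 (-4.21), Ccnd1 (-0.32), Col3a1 (-0.62), Col6a1 (-0.45), Dcn (-0.95) and Actb (-0.10). Actb stood at -0.00 with the length and GC trend removed, with or without the replicate block. The cause was not tested.

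Pseudocounts, equal spread and the fit on recovered reads (limma voom) were chosen after seeing the data. Voom called 3317 genes higher and 3841 lower, and 97.1% of the calls were called in the same direction. Same-numbered libraries did not deviate together (correlations of -0.0224 to 0.0591), so the numbers do not pair them. With the replicate block 3590 genes were higher and 4032 lower, and none of the 134 genes changed its call. With the block and the trend removed they were 3450 and 3530, and Zc3h13 (0.10) and Cbll1 (0.22) were then called higher. DESeq2 was not run because the values are scaled reads, and the fit of 8 separate libraries is the one reported. With 6199665 and 6702032 reads, Mettl3 WT limits low genes: 494 genes had 0 reads in both WT libraries and reads in both cKO libraries, with a median of 2 reads there.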
